A study of Mus musculus with 20 samples.

Results

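The microRNA (miRNA) miR-21 was followed in the lesion-bearing ascending aorta through its 2 mature arms, mmu-miR-21a-5p and mmu-miR-21a-3p (below without the prefix for mouse), which are 2 of the 1881 mature mouse miRNAs on the array and were picked by name. The tissue came from male mice labelled as double knock out Apobtm2Sgy/Ldltm1Her. Every group carries this genotype, so none is a wild type. The 20 samples, each of total RNA on its own array in 1 colour (Cy3), fall into 7 groups: 2 samples at week 0 on chow diet, and, at each of weeks 6, 18 and 30, 3 samples on chow diet and 3 on high fat diet. The latter is described elsewhere in the series record as rich in cholesterol. The labels' age entry repeats the week, and the age of the animals when the diet began, as well as any pooling of animals, is not given in the sources used here. Nothing in the labels says that replicates came from separate animals, so each p-value reflects only the scatter among the arrays, part of which may be technical. In whole tissue, a lower level from fewer cells of a type and one from less RNA per cell cannot be told apart.

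A miRNA is cut from a hairpin precursor that can yield a mature RNA from either side, the 5p and the 3p arm, and usually 1 arm is kept while the other is degraded. The kept arm guides Argonaute proteins to messenger RNAs through its seed, the bases near its 5′ end, and lowers their output. miR-21-5p is abundant in many tissues and is known for its induction in injured arteries, where it has been studied in smooth muscle proliferation and neointima formation, in macrophage inflammation and in tissue fibrosis, with the signalling inhibitor gene Spry1 among its studied targets.

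The mature sequences of the 2 arms and of the 2 other miR-21 entries on the array are shown because they decide which RNA a probe can read. All 4 entries were found in RefSeq (GRCm38.p6). Capitals mark the seed, bases 2 to 8 from the 5′ end.
miR-21a-5p: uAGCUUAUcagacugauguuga
miR-21a-3p: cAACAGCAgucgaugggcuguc
miR-21b: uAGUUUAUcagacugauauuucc
miR-21c: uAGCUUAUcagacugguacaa
The arms of miR-21a have unrelated seeds. Among the 1679 mature mouse names of the table, the 5p seed AGCUUAU was shared by 1 other, miR-21c, and the 3p seed AACAGCA by 0 others. Against miR-21a-5p, counting from base 1 at the 5′ end, miR-21b has the substitutions C4U, G18A, G21U and A22C and 1 extra base at its 3′ end. miR-21c has A16G, G18A, U19C, U20A and G21A and ends 1 base earlier. In the same annotation Mir21a lies on the minus strand within the span of Vmp1, a protein-coding gene for an autophagy membrane protein on that strand.

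The array reads each arm with DNA probes complementary to its 3′ part. The brightest probe of each arm is shown, since these carry the detection results.
miR-21a-5p probe: tcaacatcagtctgataagc
miR-21a-3p probe: gacagcccatcgact
The first has 20 bases, pairs with bases 3 to 22 of miR-21a-5p and is placed at chr11:86397588-86397607 (mm9) in the files' annotation. A second 5p probe of 19 bases pairs with bases 4 to 22. The longest of 4 miR-21a-3p probes has 15 bases, pairs with bases 8 to 22 and is placed at chr11:86397631-86397645 (mm9). The others have 12, 13 and 14 bases. The files write these spans with the higher position first, as on a minus strand. Yet the positions rise with the base number of the miRNA, as on a plus strand, although Mir21a lies on the minus strand. This difference was not resolved. Each arm has 30 spots on every array.

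The deposited value of a spot is its background-subtracted intensity. For the comparisons the mean over the spots and probes of a miRNA was divided by a scale factor of its array and put on the log2 scale, here called the log2 scaled intensity, so a difference of 1 is a 2-fold change. Detection of a miRNA on an array required 1 probe with 0.5 or more of its usable spots well above background. Between 316 and 742 miRNAs were detected per array, and the scale factors spanned 9.03-fold. The 4 arrays with the fewest were week 18 chow replicate 1 with 316, week 18 high fat replicate 3 with 328, week 6 high fat replicate 3 with 345 and week 30 high fat replicate 1 with 355. Of the aortic markers, between 2 and 3 of 4 smooth muscle miRNAs (the arms of miR-143 and miR-145a) and between 1 and 2 of 2 endothelial ones (the arms of miR-126a) were detected on each array. Of markers of other tissues, between 0 and 7 of 7 epithelial and between 3 and 6 of 7 striated muscle miRNAs were detected on an array. The third replicate of week 18 high fat and the second of week 30 high fat, of different groups, differed with an SD of 0.19, and replicates 2 and 3 of week 30 high fat with one of 0.18, over the 192 miRNAs detected on all arrays, against a median of 0.95 for pairs of 1 group on 1 slide. Replicates 1 and 2 of week 6 chow were also near-identical, with an SD of 0.28, as were the third replicates of week 18 high fat and week 30 high fat, with one of 0.33. For 8 arrays the position given in the labels was not that in the file, and in 2 cases, the first replicates of week 18 chow and of week 18 high fat, the labelled position holds an array of the other diet.

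miR-21a-5p was detected on 20 of 20 arrays, with 573 of 581 usable spots well above background. Its unscaled intensity ran from 27.5 to 5452, with a median of 1668. On 19 arrays every usable spot was above background. The exception was week 30 high fat replicate 1, where 22 of 30 spots were.

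In the week 0 chow group, the log2 scaled intensity of miR-21a-5p was 10.36 and 11.47 (mean 10.92 ± 0.78, SD, n = 2). At week 6 it was 10.70, 10.87 and 10.20 on chow (10.59 ± 0.34, n = 3) and 10.17, 12.38 and 11.66 on high fat (11.40 ± 1.13, n = 3). Chow replicates 1 and 2 are near-identical arrays, so the SD of that group may understate its spread. The high fat group held the 2 highest arrays of the series, while its first replicate was below all 3 chow arrays.

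At week 18 the values were 9.13, 10.12 and 11.07 on chow (10.11 ± 0.97, n = 3) and 10.39, 10.52 and 9.99 on high fat (10.30 ± 0.28, n = 3). All 3 high fat arrays thus lay inside the range of the chow arrays. At week 30 they were 10.20, 11.07 and 10.01 on chow (10.43 ± 0.56, n = 3) and 6.40, 9.87 and 9.79 on high fat (8.68 ± 1.98, n = 3). Here every high fat array lay below every chow array, 2 of them by little and replicate 1 by far.

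**Figure D1:**
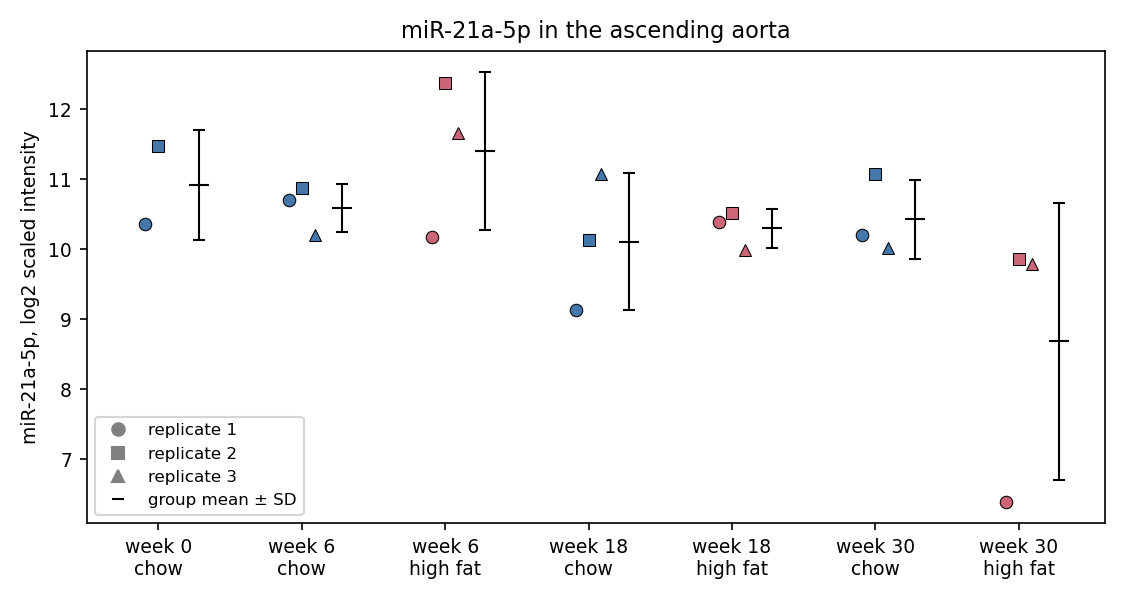
miR-21a-5p (vertical axis, log2 scaled intensity) on each of the 20 arrays by week and diet; circles, squares and triangles are replicates 1, 2 and 3, blue is chow, red is high fat, and bars are group means ± SD. The group means lie between 10.11 and 11.40 except for week 30 high fat at 8.68, whose replicate 1 sits at 6.40.

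Ordered by mean, the groups were week 6 high fat, week 0 chow, week 6 chow, week 30 chow, week 18 high fat, week 18 chow and week 30 high fat. Each neighbour in this order differed from the next by less than the larger of their SDs, and the ranges of all 6 neighbouring pairs overlapped. No single step in the order is therefore larger than the spread between arrays. The widest step, from week 18 chow to week 30 high fat, was 1.43 beside an SD of 1.98.

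The diet comparison asks whether the ascending aorta on high fat diet carried more or less miR-21 than that on chow at the same week. miR-21a-5p was 1.75-fold higher on high fat at week 6, a log2 difference of 0.81 with a standard error (SE) of 0.78 and an adjusted p of 0.769 (limma, Benjamini-Hochberg over 609 miRNAs). Of the miRNAs tested, 2.96% passed the threshold of 0.05 there, so the week 6 diet difference of miR-21a-5p was not among the few that did. With the test restricted to miRNAs detected on all arrays, as miR-21a-5p is, 0 passed. At week 18 the log2 difference was 0.19 (95% interval -1.46 to 1.84, limma adjusted p = 0.962), where 0% of the miRNAs passed. Without week 18 chow replicate 1, the lowest chow array, that difference was -0.30, with the 75th percentile over all miRNAs it was -0.31, and without scaling between arrays it was 1.22. At week 30 miR-21a-5p was 3.35-fold lower on high fat, a log2 difference of -1.74 (95% interval -3.39 to -0.09, limma adjusted p = 0.258), and 0% of the miRNAs passed.

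The week 30 difference is the only one of the 3 in which the diets do not overlap. With 3 arrays against 3, an exact 2-sided permutation test gave p = 0.1, the smallest it can give. Its size rests on replicate 1 of the high fat group: without that array the group stood at 9.83 ± 0.06 (n = 2, the near-identical pair named above, so this SD is no measure of the spread of the group) and the difference from chow was -0.60 (limma adjusted p = 0.624). With that pair averaged and counted as 1 array it was -2.32. The median of all tested miRNAs was -0.13 in this comparison. All arrays of weeks 0 and 6 are on slide 1, so the week 6 difference is within a slide. At week 18 the difference within slide 2 was 0.35. The week 30 chow arrays are on slide 2 and the high fat arrays on slide 3, and with slide as a block, the week 30 difference was -1.27 (limma adjusted p = 0.697). That value rests on 1 array, week 18 high fat replicate 3, the only one of its group on slide 3. This array has a negative control SD of 22.3 and is near-identical to replicates 2 and 3 of week 30 high fat.

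In week 30 high fat replicate 1, miR-21a-5p was 3.43 lower on the log2 scale, or 10.8-fold, than the mean of replicates 2 and 3. Of the 192 miRNAs detected on all arrays it was the one with the largest deficit in that array. After scaling, 86 of the 192 were lower in that array and the median of their differences was 0.11. The scaling uses these same 192 miRNAs, so this does not show that the array was as bright as the others. Before scaling their 75th percentile was 254 in replicate 1, against 1372 and 908 in replicates 2 and 3. The 2 probes of miR-21a-5p showed the deficit alike: the 20-base probe had a scaled intensity of 128 against 1463 and 1404 in replicates 2 and 3, and the 19-base probe 40.2 against 405 and 364. Over the 20 arrays, the 2 probes correlated with r = 0.99 on the log2 scale, and with r = 0.96 without the 2 arrays farthest from the median.

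Marker lists of other cell types were set beside this difference. The summed level of the endothelial pair was 9.32 to 11.15 on the log2 scale against 10.85 to 11.93 on chow, with between 1 and 2 of 2 detected, and its lowest value was replicate 1. The 7 macrophage and blood cell miRNAs summed to 7.91 to 8.95 against 8.83 to 9.22, with between 3 and 7 detected, and here replicate 1 was the highest of the high fat arrays. The 4 smooth muscle miRNAs summed to 10.34 to 11.26, with all 3 chow arrays inside that range. The 7 epithelial miRNAs summed to 5.09 to 6.12 against 6.75 to 10.55, with no overlap and between 0 and 5 detected on high fat. The 3 red cell miRNAs summed to 9.19 to 10.96 against 10.88 to 12.23, and the 3 fibroblast ones to 8.76 to 9.72 against 9.66 to 10.07, each with replicate 1 lowest. The 5 adipose miRNAs summed to 11.14 to 12.93 against 10.93 to 11.95 on chow. The 7 striated muscle ones summed to 11.29 to 13.38 against 11.28 to 12.04. In both lists replicate 1 was the highest of the high fat arrays and lay above every chow array. The part of these cell types in the miR-21a-5p difference was not tested. The labelled positions of the week 30 high fat arrays also differ from those in the files, but within the group, so this moves no array to another diet.

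Averaged over the 3 weeks, miR-21a-5p differed between the diets by -0.25 (SE 0.45, limma adjusted p = 0.719, with 0.164% of miRNAs called). An exact permutation of the diets within weeks, over 8000 arrangements, gave a 2-sided p of 0.717. The weekly differences had opposite signs at weeks 6 and 30. Their change over time was tested directly by a moderated F test, which gave F = 2.89 and a limma adjusted p of 0.529, so the diet effect was not shown to change between weeks. Of the miRNAs tested, 0.985% passed that test.

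**Figure D2:**
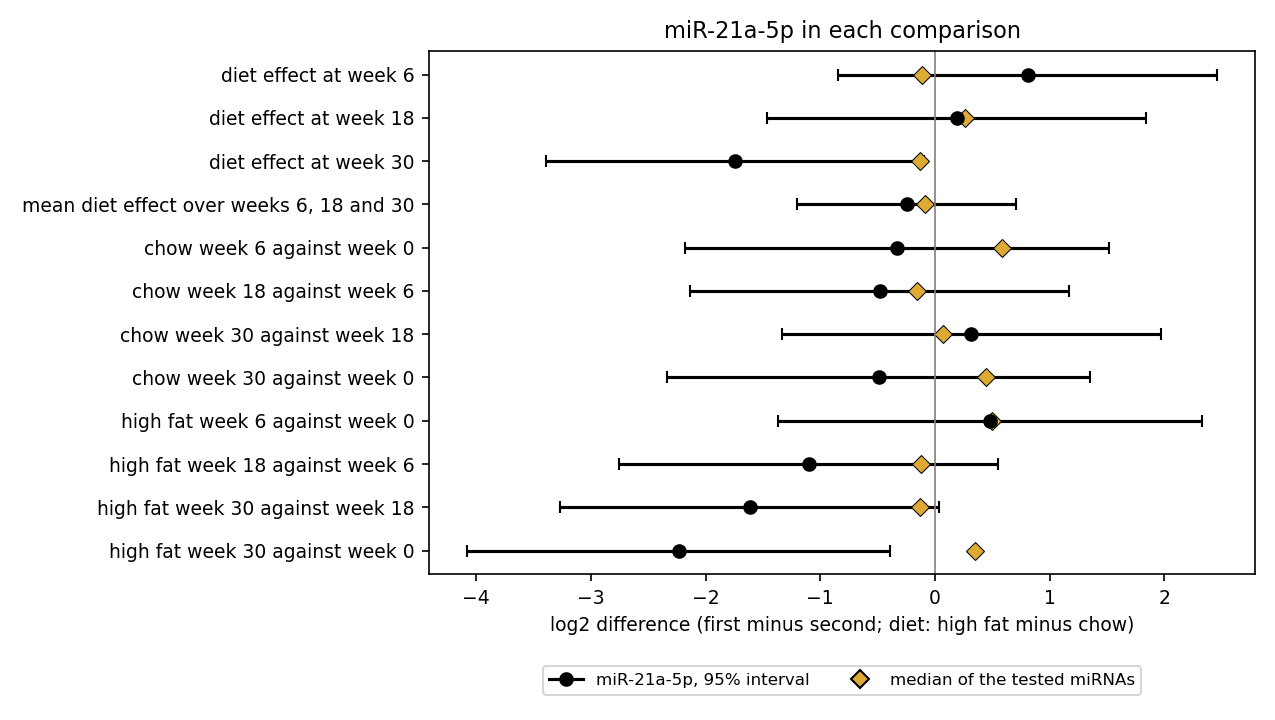
Differences in miR-21a-5p (circles, with 95% intervals from limma) in 12 comparisons on the log2 scale, first group minus second, and the median over the 609 tested miRNAs (diamonds). The intervals of week 30 high fat against week 30 chow and against week 0 lie below 0 before adjustment for the number of miRNAs.

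In time, miR-21a-5p on chow differed by -0.33 from week 0 to 6 (SE 0.88, limma adjusted p = 0.889), by -0.48 from week 6 to 18 (SE 0.78, adjusted p = 0.713) and by 0.32 from week 18 to 30 (SE 0.78, adjusted p = 0.996). Many miRNAs were called in the first of these steps (20.4%) and in the second (16.4%), and 0% in the third. With the test restricted to the 192 miRNAs detected on all arrays, to which miR-21a-5p belongs, 0 were called in the first step and 1 in the second. The calls thus lay almost wholly among miRNAs not detected on some arrays. The first and second steps both use the week 6 chow group, 2 of whose arrays are near-identical. miR-21a-5p was in neither set of called miRNAs. With the 75th percentile over all miRNAs its first step was -1.78 (limma adjusted p = 0.134), and the signs of its last 2 steps turned with the same scaling (0.19 and -0.01) and without week 18 chow replicate 1 (0.0091 and -0.17). Between chow at weeks 30 and 0 it differed by -0.49 (limma adjusted p = 0.758, 0% called), by -1.60 with the 75th percentile over all miRNAs (adjusted p = 0.206) and by -0.089 without scaling.

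On high fat, the difference from week 0 to week 6 was 0.48 (SE 0.88, limma adjusted p = 0.855, 0% called), or -0.49 with the 75th percentile over all miRNAs. The level was lower at week 18 than at week 6 (log2 difference -1.10, SE 0.78, adjusted p = 0.571, 0% called) and lower again at week 30 than at week 18 (-1.62, SE 0.78, adjusted p = 0.809, 0% called). The high fat arrays at weeks 18 and 30 did not overlap, but by little. The nearest were week 18 replicate 3 at 9.99 and week 30 replicate 2 at 9.87, which are near-identical arrays (SD 0.19). The step to week 18 was -1.72 without week 6 high fat replicate 1, -0.61 without replicate 2 of that group and -0.31 without scaling. The step to week 30 was -0.47 without week 30 high fat replicate 1 and -0.32 with array weights. None of these steps passed the test. The comparisons within a diet share groups with one another and with the diet comparisons, so they are not independent.

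The largest difference of miR-21a-5p was between week 30 high fat and week 0. It was 4.71-fold lower at week 30, a log2 difference of -2.23 (95% interval -4.08 to -0.39, limma adjusted p = 0.0716), and the 3 arrays at week 30 lay below both at week 0. It missed the threshold in a comparison in which 21.5% of miRNAs passed, 100 of them higher and 31 lower at week 30. The median of all miRNAs was 0.35 there, so relative to that shift miR-21a-5p stood 2.58 lower. Without week 30 high fat replicate 1 the difference was -1.09 (limma adjusted p = 0.268). Of the other ways of processing tried, 4 brought the adjusted p under 0.05, down to 0.0190 with the 75th percentile taken over all miRNAs. The week 0 arrays are all on slide 1 and the week 30 high fat arrays all on slide 3, so slide and time cannot be told apart here.

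miR-21a-3p, the arm that is usually degraded, was detected on 3 of 20 arrays, with 35 of 555 usable spots well above background. These arrays were week 6 high fat replicates 2 and 3 and week 18 chow replicate 3. The first 2 of them are also the 2 arrays with the highest miR-21a-5p. Its unscaled intensity ran from -0.53 to 16.9, negative values arising from the background subtraction. On week 6 high fat replicate 2, 14 of 27 usable spots were above background, against 5 of 29 on replicate 3 and 1 of 27 on replicate 1. No group had all of its arrays detected, so miR-21a-3p did not enter the test across miRNAs and its values are a description.

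**Figure D3:**
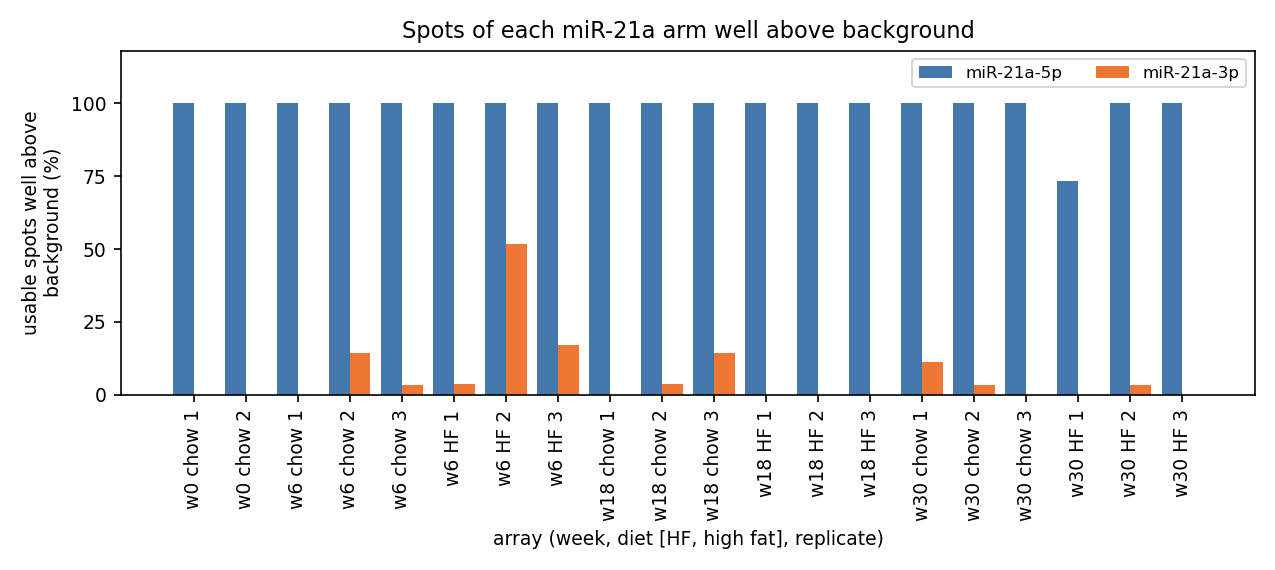
Share of usable spots well above background (vertical axis, percent) for miR-21a-5p (blue) and miR-21a-3p (orange) on each of the 20 arrays; w is week and HF is high fat. The 5p arm reaches all usable spots on 19 arrays, while the 3p arm stays near 0 on most and is highest on week 6 high fat replicate 2, with 14 of 27 spots.

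Only the longer probes gave a 3p signal. The 15-base probe was detected on 3 arrays, the 14-base probe on 1, and the 12- and 13-base probes on 0 of 20. The 15-base probe had scaled intensities of 27.5 and 29.6 on week 6 high fat replicates 2 and 3, and 9.97 on week 18 chow replicate 3. Groups in which no array was detected were given an upper limit. The mean of the week 6 high fat group was 1.38-fold the limit of week 0, 1.495-fold that of week 30 chow, 1.28-fold that of week 30 high fat and 1.01-fold that of week 18 high fat. Against the limit of week 6 chow it was 0.98, so no fold could be given. Each limit replaces a dim array's value by the lowest signal among probes well above background there, unless the probe itself was brighter. Of the 3 week 6 high fat arrays, replicate 1 was itself not detected. It entered at its measured 8.75, so these folds are not strict lower bounds. For week 18 chow, where 1 array was detected, the same ratios were 0.59 to 0.89. With values under the common floor of 3.09 raised to it, the diets at week 6 differed by 0.46 on the log2 scale, which the floor sets in part and which is no measured change. Since the 3p arm lay at the floor on most arrays, the difference between the arms repeats the 5p values, and its mean diet effect was -0.40 (exact 2-sided permutation p = 0.533).

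miR-21b and miR-21c, whose sequences stand beside those of the miR-21a arms above, were detected on 0 of 20 arrays, with 0 of 581 and 0 of 586 usable spots above background. Their probes match miR-21a-5p in all but the substituted bases and its 3′ end. This held also on week 6 high fat replicate 2, the array with the highest miR-21a-5p.

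The miRNAs whose pattern over the 20 arrays was most like that of miR-21a-5p, out of 191 others detected on all arrays, were miR-199a-3p (r = 0.93), miR-26b-5p (0.91), miR-130a-3p (0.89), miR-195a-5p (0.89) and miR-30b-5p (0.88). The least like were miR-6944-5p (-0.78), miR-3098-5p (-0.74) and miR-6360 (-0.73). These are descriptions over arrays that share their scaling, and the median r over all 191 was -0.33. Without the 2 arrays in which miR-21a-5p lay farthest from its median (the first replicate of week 30 high fat and the second of week 6 high fat), r with the 5 most alike fell within 0.67 to 0.80, and r with miR-6944-5p was -0.78. The first neighbour is also a fibroblast marker of the list used here. The other members of that list were not alike, with r = 0.31 for miR-199a-5p and -0.57 for miR-214-3p.

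**Figure D4:**
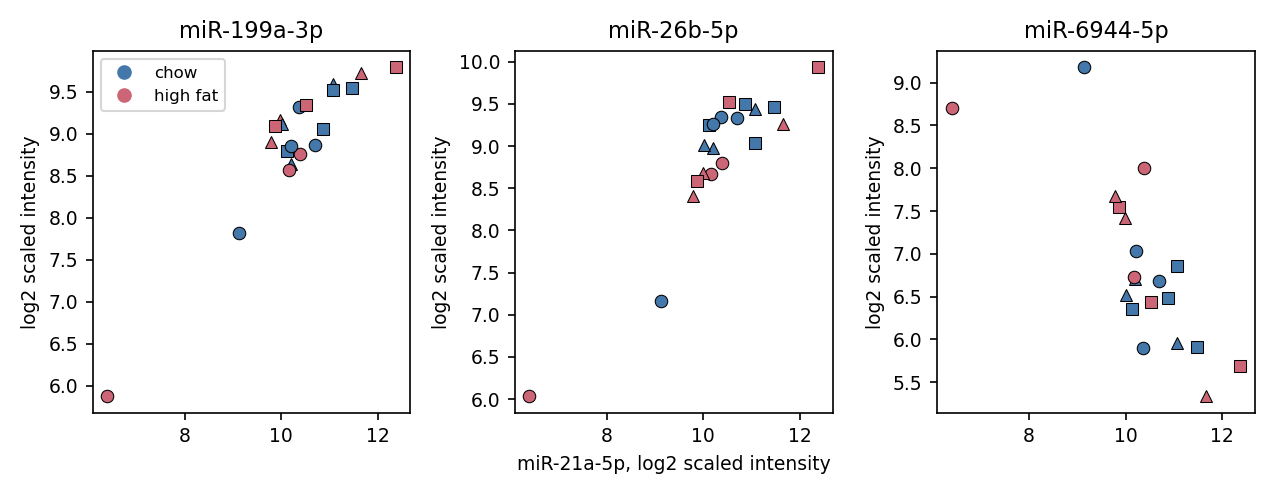
Log2 scaled intensity of miR-199a-3p, miR-26b-5p and miR-6944-5p (vertical axes) against that of miR-21a-5p (horizontal axis) on the 20 arrays; blue is chow, red is high fat, and the marker shape gives the replicate as in the plot by group. The first pair rise with miR-21a-5p (r = 0.93 and 0.91) with week 30 high fat replicate 1 at the lower end, and miR-6944-5p runs the other way (r = -0.78).

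The same array set these miRNAs apart. In week 30 high fat replicate 1, miR-199a-3p was at 5.88 on the log2 scale, a difference of -3.12 from the mean of replicates 2 and 3. The difference was -2.47 for miR-26b-5p, at 6.03, and miR-195a-5p was at 5.53 against 8.03. miR-6944-5p was at 8.71 against 7.61. The mature sequences of the nearest and the farthest of these miRNAs (RefSeq, GRCm38.p6, seed in capitals) are shown beside miR-21a-5p because they differ in base composition.
miR-21a-5p: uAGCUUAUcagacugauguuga
miR-199a-3p: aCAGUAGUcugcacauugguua
miR-26b-5p: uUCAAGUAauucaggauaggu
miR-6944-5p: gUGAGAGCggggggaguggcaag
The seeds of these 4 all differ. G and C make up 36.4% of miR-21a-5p, 40.9% of miR-199a-3p and 33.3% of miR-26b-5p, against 69.6% of miR-6944-5p. Of the 191 miRNAs, 158 had a sequence in the table, and among them the 64 with a positive r had a median GC content of 47.5% and the 94 others one of 63.6%. Over these 158 miRNAs, GC content and r with miR-21a-5p correlated at -0.70 (Pearson) and -0.74 (Spearman). This is a description across miRNAs, which share the same 20 arrays and are not independent replicates. The part of base composition in the differences of miR-21a-5p was not tested.

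Over the 20 arrays, the miR-21a-5p level correlated with the number of miRNAs detected at r = 0.25 (Spearman's rho = 0.04). With the log2 of the 75th percentile intensity before scaling, r was 0.37 (rho = -0.11). These are descriptions, and the part of array quality was not tested. Of the 4 arrays with the fewest detected, week 30 high fat replicate 1 and week 18 chow replicate 1 had the lowest miR-21a-5p of all 20, while week 6 high fat replicate 3 had the second highest and week 18 high fat replicate 3, at 9.99, was near the other arrays of its group. The SD of the negative control spots was 22.3 on the last of these and at most 2.53 on the others.

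Other miRNAs studied in vascular injury and fibrosis were listed to set miR-21a-5p beside them, and 21 of the 22 were in the test. Between the diets at week 6, 0 of 21 were higher and 1 was lower on high fat at an adjusted p under 0.05 (2.96% of all miRNAs called). It was miR-181b-5p, known to damp NF-kB signalling in endothelium, with a log2 difference of -2.67 (limma adjusted p = 5.2e-04). On chow, miR-181b-5p differed by 2.99 from week 0 to 6 (limma adjusted p = 6.1e-04) and by -3.70 from week 6 to 18 (1.3e-05). Its week 6 diet difference thus goes with a high level in the week 6 chow group, 2 of whose arrays are near-identical. miR-181b-5p was not detected on every array. With the test restricted to miRNAs detected on all arrays, 0 were called between the diets at week 6. The median of the list was 0.12, beside -0.11 over all miRNAs. At weeks 18 and 30, 0 of 21 passed, and the list medians were -0.09 and -0.40 beside 0.26 and -0.13 over all. At week 30 the smallest p in the list belonged to miR-29b-3p, of a family that targets collagen messenger RNAs, at -1.40 (limma adjusted p = 0.285), and miR-21a-5p, at -1.74, was not a member of the list.

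Between week 30 high fat and week 0, 0 of the 21 were higher and 2 lower (21.5% of all miRNAs called in either direction), with a list median of -0.65 beside 0.35 over all. The lower members were miR-31-5p, studied in smooth muscle proliferation, at -1.87 (limma adjusted p = 0.0276), and miR-146a-5p, which damps NF-kB signalling, at -3.25 (adjusted p = 0.0361). miR-21a-5p, at -2.23, lay between them in size but missed the threshold. Its SE of 0.88 also lay between those of miR-31-5p (0.53) and miR-146a-5p (1.00).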

How the data were processed

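The deposited spot intensities are linear; the submitters' processing notes name Agilent Feature Extraction 11.5.1. Per the file headers, the authors' software rejected pixel outliers, subtracted background and removed spatial trends, without scaling between arrays. Probe positions refer to mm9. The members, lists and rule for named miRNAs (both arms, relatives by name or seed, the 5 most and 3 least correlated miRNAs, and up to 4 list members by p) were chosen with earlier results of these data known.

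After removal of outlier spots (1370 to 2199 an array), a miRNA's value was the mean of its probes' spot means. Arrays were scaled to the 75th percentile of those 192 miRNAs that all arrays detected, then log2 was taken above a floor of 3.09. Testing covered 609 miRNAs, those that some group detected throughout, with limma 3.58.1 (R 4.3.3; all 20 arrays, 7 groups, 13 residual degrees of freedom, 2-sided, Benjamini-Hochberg at 0.05). The fit was tested on simulated data. The number of arrays limits the precision. Alternatives changed the scaling, background, floor, probes, filter, samples, slide and weights.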

Additional observations from a re-analysis of the deposited data

How the results depend on the processing

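For miR-21a-5p, the diet differences at weeks 6 and 30 kept their direction and did not pass the test under any alternative that could be fitted (25 and 24 settings), with values from 0.32 to 1.43 at week 6 and from -2.42 to -0.60 at week 30. The difference of week 30 high fat from week 0 kept its direction in all 22 settings and passed in 4: with the 75th percentile over all miRNAs (-3.22, limma adjusted p = 0.0190), over only miRNAs detected on all arrays (-2.23, 0.0420), with array weights, whose fit stopped before convergence (-1.12, 0.0224), and with the replicate block (-2.34, 0.0327). The array weights were 11.3 and 4.12 for the near-identical replicates 2 and 3 of week 30 high fat, and 0.230 for its replicate 1. The labels do not say that shared replicate numbers mark a pair, and the arrays were not treated as paired: same-numbered deviations correlated above 0.1 in 6 of 9 pairs (r from -0.46 to 0.68), not in all, and best with their own number in 5 of 9. Pairing of some arrays was not settled by this.

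Small differences changed sign. With the 75th percentile over all miRNAs, the week 18 diet difference was -0.31, chow week 18 against 6 was 0.19, chow week 30 against 18 was -0.0053 and high fat week 6 against 0 was -0.49. With array weights the first 3 of these were -0.81, 0.19 and -0.50. They were -0.14, 0.0091 and -0.17 without the 4 arrays with the fewest detected miRNAs, and -0.34, 0.0091 and -0.17 without the 2 arrays whose labelled position would switch the diet. The causes were not tested.

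Leaving out 1 array at a time, the values ranged from -0.88 to 0.23 for chow week 6 against 0, from -1.05 to 0.063 for chow week 30 against 0, from -0.073 to 1.10 for high fat week 6 against 0, from -0.44 to 0.13 for the mean diet difference, from -0.96 to 0.0091 for chow week 18 against 6, from -0.30 to 0.67 for the week 18 diet difference, from -0.17 to 0.80 for chow week 30 against 18, from -1.72 to -0.61 for high fat week 18 against 6, and from -2.21 to -0.47 for high fat week 30 against 18. Where a group was left with 1 array, it was assumed to vary like the other groups.

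For miR-21a-3p the week 6 diet difference was 0.17 without scaling, 0.098 with quantile normalization and -0.020 with normexp, and 0.31 to 0.72 leaving out 1 array. High fat week 6 against 0 was 0.22, 0.17, 1.19 with a lower floor and 0.80 with the second brightest probe, a setting chosen after seeing the data, and 0.36 to 0.78 leaving out 1 array. High fat week 18 against 6 was 0.041, -0.15, -1.05 with the lower floor, and -0.78 to -0.36 leaving out 1 array. The mean diet difference was -0.048 with normexp. Counting an array as detected with at least 1 spot above background, also chosen afterwards, gave 10 arrays in place of 3. Counts of miRNAs past the threshold depended more on the setting: 131 for week 30 high fat against week 0 ranged from 0 to 399, 124 for chow week 6 against 0 from 0 to 268, 100 for chow week 18 against 6 from 1 to 360, 18 for the week 6 diet difference from 0 to 51 and 0 for the week 30 diet difference from 0 to 269. The upper ends of 399, 268, 360 and 269 came with array weights, whose fit stopped before convergence. That of 51 came with the second brightest probe. The miR-21a-5p signal is far above background on 19 arrays, while that of miR-21a-3p is near it on all.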
